A study of Mus musculus with 3 samples.

Results

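The regions described are 2162 summits of histone H3 lysine 9 acetylation (H3K9ac) in hematopoietic stem cells (HSCs). Each was listed in both libraries labelled as old HSCs and had no counterpart in the library labelled as young HSCs. They were selected on measured values: a summit of the library labelled old ABC on chromosomes 1 to 19 or X, with a score of at least 5, a summit of the library labelled old within 500 bp, and no summit of the library labelled young within 5 kb. Of the 16252 ABC-labelled summits with that score, 13.3% met the rule (exact 95% Clopper-Pearson interval 12.8 to 13.8). Of the 14197 that also had an old summit within 500 bp, 15.2% did (14.6 to 15.8). The 3 lists held 187421 summits in all. Each binomial interval given here covers counting error only and leaves out the spread between libraries.

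The study profiled H3K9ac by CUT&Tag in HSCs sorted from the bone marrow of wild-type mice, with 50000 cells per assay and 1 library per group. The young group (yHSC) came from mice aged 2 to 4 months, and the old group (oHSC) and the old ABC group (oHSC_ABC) from mice aged 18 to 24 months, as read from the protocol and the letter that opens each title. The labels do not spell out ABC, nor its dose or timing, and do not give the number of mice. A single library per group gives no replicates and no test, so the values below describe 3 libraries and not 3 conditions. The sample names inside the peak names went against the labels: the young-labelled list carried oHSC-H3K9ac-1, the old-labelled list oHSC-ABC-H3K9ac-1 and the ABC-labelled list oHSC-H3K9ac-2. If the inner names were right, none of the 3 lists would come from young cells. Libraries are therefore called by their labels throughout, as young-labelled, old-labelled and ABC-labelled, and "absent from young" means absent from the young-labelled list.

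H3K9ac is an acetyl mark that histone acetyltransferases place on nucleosomes at active promoters and at a part of the active enhancers, and that deacetylases remove. CUT&Tag uses an antibody to tether a transposase beside the mark, where it inserts sequencing adapters, and a summit is the base with the highest signal in a called peak. HSCs sustain blood formation, and their output and chromatin are known to change with age. The labelled cell type was checked against its markers: of 30 genes of HSC identity, 27 had a summit in or within 5 kb of the gene record in the young-labelled list, 30 in the old-labelled list and 30 in the ABC-labelled list. Over all 21631 protein-coding genes the shares were 63.3%, 78.4% and 67.6%. Of 27 genes of other tissues the numbers were 7, 20 and 10. Markers of other blood cells were marked too: B cell markers at 11, 18 and 10 of 20 genes, T and NK cell markers at 13, 22 and 20 of 26, and neutrophil and monocyte markers at 22, 28 and 26 of 30. For megakaryocyte and platelet markers the numbers were 11, 17 and 13 of 20, for erythroid markers 10, 15 and 10 of 20, and for stroma and endothelium markers 11, 17 and 14 of 20. In each of these lists the old-labelled number was the highest or tied for it.

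Few of these regions lay at a promoter, and the sequences of those with the highest scores that did are shown first. Of the 2162 summits, 43 (1.99%) fell within a protein-coding promoter window of RefSeq (GRCm38.p6, the coordinates of mm10), which runs from 250 bases before a start site to 50 after it. They touched 44 genes. Shown are the 250 bases before the start of the genes with the highest ABC score whose summit lay before the start, 5′ to 3′ on the strand of the gene, with capitals for the 21 bases centred on the ABC-labelled summit. Creb5 was added after its values were seen because its summit lay on a match to the motif TGANTCA.
Smim13 (chr13:41249594-41249843, + strand): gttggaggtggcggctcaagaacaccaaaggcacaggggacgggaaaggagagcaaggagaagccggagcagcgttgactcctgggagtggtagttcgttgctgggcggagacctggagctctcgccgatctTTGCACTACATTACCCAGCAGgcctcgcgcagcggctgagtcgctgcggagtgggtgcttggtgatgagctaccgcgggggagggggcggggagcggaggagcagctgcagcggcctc
Tsga10 (chr1:37865299-37865548, - strand): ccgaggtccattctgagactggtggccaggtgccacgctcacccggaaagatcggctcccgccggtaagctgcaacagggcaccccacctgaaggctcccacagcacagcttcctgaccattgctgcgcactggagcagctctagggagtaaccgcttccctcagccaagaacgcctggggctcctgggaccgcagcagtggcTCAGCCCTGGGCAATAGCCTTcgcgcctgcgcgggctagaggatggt
Fancb (chrX:164980342-164980591, + strand): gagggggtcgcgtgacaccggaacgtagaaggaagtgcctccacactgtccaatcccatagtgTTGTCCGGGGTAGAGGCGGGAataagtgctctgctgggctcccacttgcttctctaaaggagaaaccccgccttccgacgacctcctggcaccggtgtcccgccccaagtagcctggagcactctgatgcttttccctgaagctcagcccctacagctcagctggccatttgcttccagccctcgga
Lrp11 (chr10:7589567-7589816, + strand): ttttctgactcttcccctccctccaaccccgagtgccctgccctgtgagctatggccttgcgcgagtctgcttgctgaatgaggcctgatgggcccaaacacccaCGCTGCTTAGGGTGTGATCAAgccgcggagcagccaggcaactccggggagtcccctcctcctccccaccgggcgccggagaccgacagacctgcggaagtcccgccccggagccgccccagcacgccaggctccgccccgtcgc
Creb5 (chr6:53573124-53573373, + strand): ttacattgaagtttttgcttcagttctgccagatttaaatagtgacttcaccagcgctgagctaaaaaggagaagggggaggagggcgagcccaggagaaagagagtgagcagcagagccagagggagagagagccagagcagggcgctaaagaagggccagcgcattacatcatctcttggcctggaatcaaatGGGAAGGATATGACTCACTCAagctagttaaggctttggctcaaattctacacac

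The Smim13 summit, at a gene for a small membrane protein, lay 108 bases before the start, with an ABC score of 12.5 and an old score of 16.2. Its window of 300 bases was 65.3% G or C and held 22 CpG dinucleotides. No young-labelled summit lay closer than 109182 bp, and none lay in reach of the gene, against 3 old-labelled and 2 ABC-labelled summits. The Tsga10 summit, at a testis-expressed gene, lay 37 bases before a start, with scores of 12.4 and 18.7 and the nearest young summit at 7055 bp. One summit served Fancb, a subunit of the Fanconi anaemia DNA repair complex, and Mospd2, whose start lies on the opposite strand: it was 177 bases before the first and 40 bases before the second, with scores of 10.1 and 14.4. The nearest young summit to it was 560522 bp away. At Lrp11 the summit lay 135 bases before the start, with scores of 10.1 and 13.4. At Creb5, a transcription factor of the cAMP-response-element family, the ABC score was 6.57 and the old score 25.4. Its window was poor in CpG, with 4 dinucleotides. The Prkca window, at the start of protein kinase C alpha, held 42, the most of any window here, and the Lmna window, at a listed start of the gene for lamin A, held 1.

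In CpG content the promoter windows that held one of these summits differed from those that held a shared one. A shared summit here means an ABC-labelled summit scoring at least 5 with both an old-labelled and a young-labelled summit within 500 bp; there were 11074. Over 48 windows (44 genes, some with several starts), the median ratio of observed to expected CpG was 0.5, against 0.749 over 1524 windows with a shared summit and 0.574 over all 21020 windows. The ratio exceeded 0.6 in 39.6% of them, in 73.4% of the shared windows and in 48.1% of all. Median G+C content was close in windows with a member (59.8%) and with a shared summit (60.0%), and was 56.7% over all windows. Short motifs were searched on both strands and counted independently, so matches could overlap. TGANTCA, the core bound by AP-1 factors, was in 5 of 48 windows (10.4%), in 4.66% of shared windows and in 7.04% of all. AGATAA, bound by factors of the Gata family, was in 6 (12.5%), against 6.3% and 9.69%. TGTGGT, a RUNX motif, was in 10 (20.8%), against 13.0% and 14.7%. CANNTG, the E-box, was in 68.8%, against 60.0% of shared windows and 69.0% of all, and GGAA, the core of ETS sites, in all 48, against 96.5% of shared windows and 95.7% of all. The first 3 of these shares rest on 5, 6 and 10 windows, and a match is a description and not a bound site. The rule itself bears on these contrasts, in CpG as in motifs. No member could lie within 5 kb of a young-labelled summit, and each shared summit had one within 500 bp. The sets were not matched on score, and no interval was computed for the 48 windows.

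The thresholds of the rule cut through continuous ranges of scores and of distances, with no gap at any of them. The scores nearest the threshold were 5.01 inside and 5.00 outside. The closest young-labelled summits to members were at 5002, 5010 and 5021 bp, and those just excluded had one at 4980, 4955 and 4952 bp. The farthest accepted old-labelled summits were at 495, 494 and 490 bp, and the nearest rejected at 501, 504 and 507 bp. Among the 14197 ABC-labelled summits with the score and an old neighbour, 11074 (78.0%) had a young summit within 500 bp and 961 had one between 500 bp and 5 kb. From 3 to 4 kb there were 58 and from 4 to 5 kb 74, whereas from 5 to 6 kb there were 132 and from 6 to 7 kb 152. The members had their nearest young summit at a median of 16596 bp, and 1558 (72.1%) had none within 10 kb. For 355 (16.4%) it was over 50 kb away, up to 6646913 bp at Cldn34c1 on the X chromosome. Read assignment at that farthest site was not tested.

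**Figure D1:**
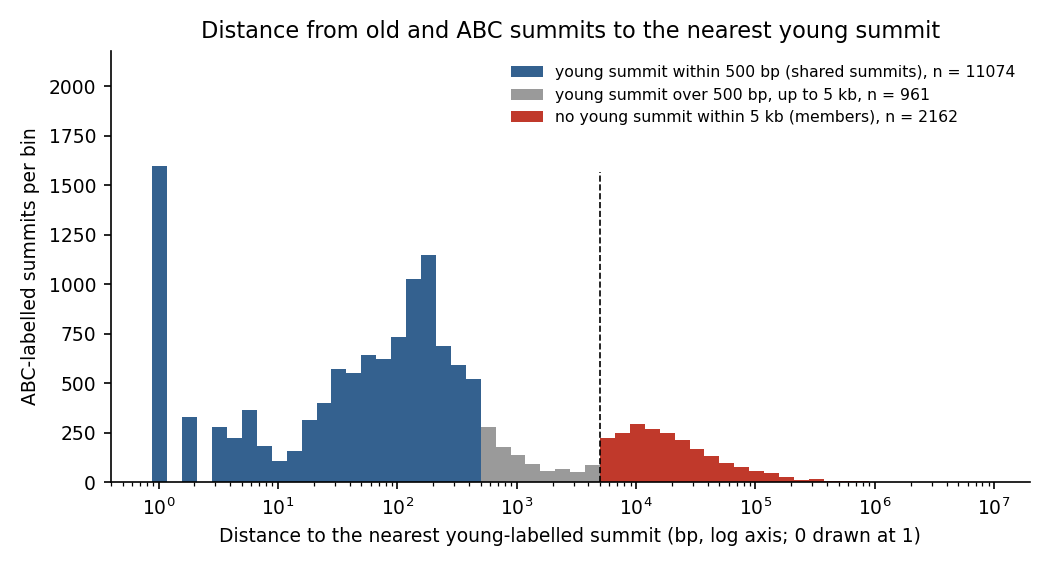
Number of ABC-labelled summits with a score of at least 5 and an old-labelled summit within 500 bp (vertical axis), by distance to the nearest young-labelled summit in bp (log axis). Colours mark the 11074 shared summits, the 961 between 500 bp and 5 kb, and the 2162 members beyond the dashed line at 5 kb, with a trough between the shared summits and the members.

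The lists differed in length, and the count of members is read beside the same rule with the lists in other roles. The young-labelled list held 33248 summits, the old-labelled 108787 and the ABC-labelled 45386. With the young-labelled list in the leading role, 852 of its 14315 summits scoring at least 5 (5.95%) had an old summit and no ABC summit. With the old-labelled list leading, 5691 of 42196 (13.5%) had an ABC summit and no young one, and 2724 (6.46%) had a young summit and no ABC one. Summits absent from the old-labelled list, the longest, were rare: 55 of 16252 ABC-labelled summits (0.338%) had a young neighbour and no old one, and 44 of 14315 young-labelled summits (0.307%) had an ABC neighbour and no old one. The share called absent thus ran opposite to the length of the list that lacked them. List length moves with read depth, which the sources used here do not give, and the part of depth in the 2162 was not tested.

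The members sat low among the ABC-labelled summits that passed the score threshold. The score, the authors' value per summit and read here as the −log10 of the q-value within a library, had a median of 6.04 in the ABC-labelled list (quartiles 5.34 and 6.97), and 75.3% were under 7. The shared summits had a median of 9.23 (6.69 and 13.8), with 29.4% under 7. Scores of at least 10 were reached by 92 members and 4907 shared summits, and of at least 30 by 6 and 344. In the old-labelled list the neighbour of a member stood at a median percentile of 74.2 and that of a shared summit at 94.1. An old score of at least 5 was found for 1481 members (68.5%) and for 96.6% of shared summits. The rank correlation between ABC and old score was 0.258 over the 2162 members and 0.741 over the 11074 shared summits, a description of summits that share their libraries and, for members, a narrow range of scores. Placement was about as close in both sets: the old summit lay a median of 58 bp from a member and 50 bp from a shared summit, within 100 bp for 62.8% and 64.1%. Many low scores repeated exactly, with 152 members at 5.31 and 84 at 6.04.

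**Figure D2:**
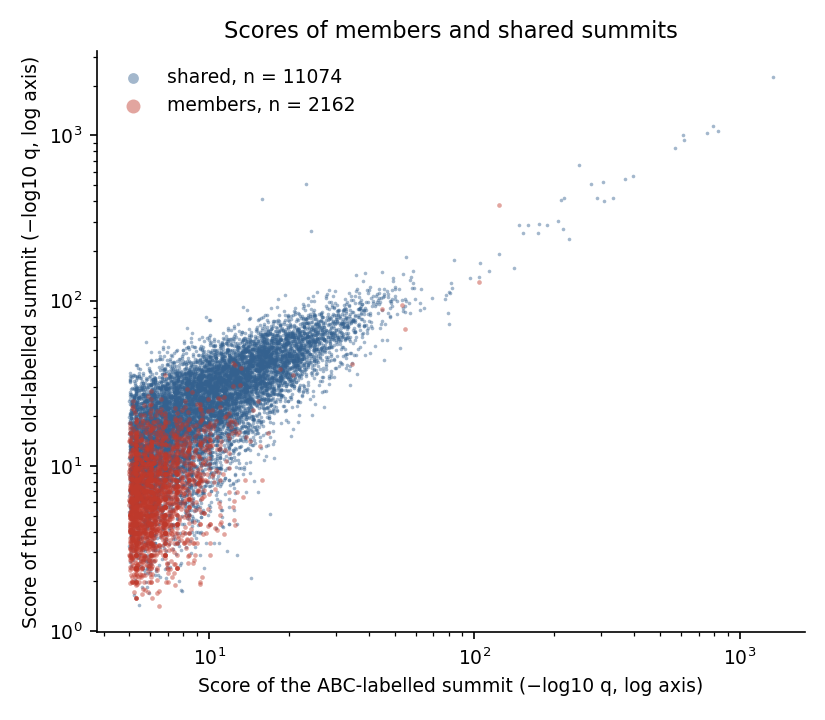
Score of each ABC-labelled summit (horizontal, −log10 q, log axis) against the score of its nearest old-labelled summit (vertical, −log10 q, log axis), 1 point per summit. The members crowd at the low end of both axes, with 6 of them at an ABC score of at least 30; the axes belong to different libraries and their levels are not comparable.

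Relative to genes, the members were mostly intragenic and rarely at gene ends. Of the 2162, 192 (8.88%, interval 7.71 to 10.2) lay within 1 kb of the start or end coordinate of a protein-coding record (a gene end), 1248 (57.7%, 55.6 to 59.8) elsewhere inside a record, and 722 (33.4%, 31.4 to 35.4) outside. Of the shared summits, 48.6% (47.6 to 49.5) lay at a gene end, 34.6% (33.7 to 35.5) inside and 16.8% (16.1 to 17.5) outside. The rule itself bears on this: 42.4% of all gene records had a young-labelled summit at an end, and no member could lie within 5 kb of such a summit. The gap between members and shared summits was present at each score. At scores of 5 to 6, 7.83% of members and 27.3% of shared summits were at a gene end, and at scores of 10 to 15, 11.2% (5.28 to 20.3) and 57.7% (55.8 to 59.6). At 15 and over, 1 of 12 members was at a gene end (8.33%, 0.211 to 38.5), against 68.9% of shared summits. Over the 6 bands the members' share at gene ends ran from 7.83% to 11.5%. Measured to the listed start sites, which leave out chromosome 18, 136 of 2094 members (6.49%) and 47.4% of 10743 shared summits lay within 1 kb of a start. By this measure the members' share rose over the bands below a score of 15. It was 4.91% (3.67 to 6.42) for scores of 5 to 6 and 14.3% (7.35 to 24.1) for 10 to 15. The shared summits had 27.1% and 57.4% in those bands. At 15 and over, 1 of 11 members lay within 1 kb of a start (9.09%, 0.23 to 41.3), against 66.2% of shared summits. The median distance to a start was 32200 bp for members and 1400 bp for shared summits.

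**Figure D3:**
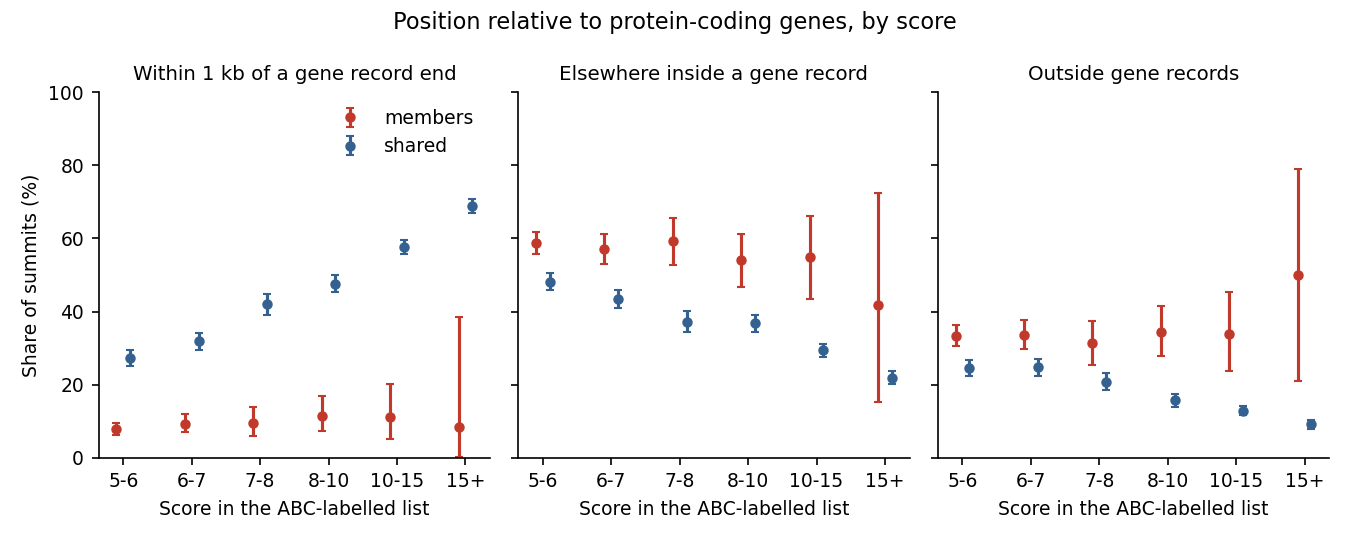
Share of summits (%) within 1 kb of a protein-coding gene record end, elsewhere inside a record, and outside records, by score band in the ABC-labelled list, for members and shared summits; bars are exact 95% binomial intervals. The share at gene ends was between 7.83% and 11.5% for members in all 6 bands and went from 27.3% to 68.9% for shared summits.

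Most members stood alone in the ABC-labelled list and in a neighbourhood that the young-labelled list did mark. Within 5 kb, 85.9% had no other ABC-labelled summit beside themselves, against 69.7% of shared summits. Within 25 kb, members had a mean of 1.3 young-labelled, 5.49 old-labelled and 2.85 ABC-labelled summits, and shared summits 2.71, 5.55 and 3.21, each count of its own list including the summit itself. The rule bears on the young-labelled counts: members had no such summit within 5 kb, where shared summits had a mean of 1.3. For 34.3% of members there was no young-labelled summit within 25 kb. Joined where gaps were at most 50 kb, 1815 members were single, 144 runs were pairs and 17 were triples. The 2 longest runs held 4 members each. One spanned 71.4 kb of chromosome 8 (84744311 to 84815710) over Nfix, a transcription factor of the nuclear factor I family with a known role in HSC survival, and Dand5. The other spanned 75.2 kb of chromosome 18 (81927500 to 82002744), with no protein-coding gene record in reach.

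A total of 1537 members (71.1%) lay in or within 5 kb of a protein-coding gene record, and they linked to 1481 of 21631 genes (6.85%, 6.51 to 7.19). Shared summits linked to 9122 genes (42.2%). Of the 1481 genes, 1333 had 1 member, 128 had 2 and 20 had at least 3. Linked genes were long: their median record was 60.8 kb, against 17.3 kb over all genes. By quartile of record length, 1.29%, 3.42%, 6.36% and 16.3% of genes were linked to a member, and 20.8%, 42.5%, 51.5% and 53.9% to a shared summit. Most linked genes were marked in the young-labelled list too. A young-labelled summit lay in reach of 79.8% of them (77.7 to 81.8), against 63.3% of all genes, and at a record end of 45.4% (42.9 to 48.0), against 42.4%. These contrasts with all genes were not matched on record length. For the 1248 members inside a record, that record had a young-labelled end summit in 52.2% of cases (49.3 to 55.0), and for shared summits inside a record in 51.6%. Both shares are descriptions, since the rule used the young-labelled list.

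For 299 linked genes (20.2%) no young-labelled summit lay anywhere in the record or within 5 kb of it. To lack one was less common among linked genes than among all genes, of which 63.3% had one in reach. This contrast was not matched on record length, and linked genes had the longer median record. Il10, the anti-inflammatory cytokine interleukin 10, was among the 299. Its member lay at 131026006 on chromosome 1, 1036 bp beyond the record (131019845 to 131024970), with an ABC score of 12.5 and an old score of 40.7, the highest old score among the 20 named gene-linked members apart from Ifna13, Dop1b and Ccdc90b. The old-labelled and the ABC-labelled list each had 2 summits in reach of Il10, and the nearest young-labelled summit to the member was 38.7 kb away. Others of the kind, chosen after their values were seen, were Prlr, the prolactin receptor, Tnfsf4, the ligand of the T cell costimulatory receptor OX40, and Robo2, an axon guidance receptor with 2 members. Each had 1 or 2 ABC-labelled and 3 or 4 old-labelled summits in reach.

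The 6 members with a score of at least 30 stood apart from the rest, and the 3 of them linked to a gene were at Ifna13, Dop1b and Ccdc90b. At Ifna13, a type I interferon gene in a cluster of near-identical copies, the member lay 2498 bp outside the record on chromosome 4 (88641143), with an ABC score of 104 and an old score of 130. Reads there may not be assigned to 1 copy, so this position is uncertain. At Dop1b the member lay inside the record on chromosome 16 (93789223), with scores of 44.7 and 88.8, and at Ccdc90b inside the record on chromosome 7 (92575787), with 34.5 and 41.4. The other 3 lay far from genes. The highest score of all members, 124, with an old score of 381, was on chromosome 4 (153153100), 220 kb from the nearest record (Ajap1) and 519 kb from the nearest young-labelled summit. On chromosome 10 (83699538) the scores were 54.9 and 67.5, and on chromosome 16 (45353075), 29.0 kb from Cd200, 53.4 and 93.8. No list of regions known to collect artefact signal was applied, and their part in these 6 was not tested. Without the 6, the share of members at gene ends was 8.91%.

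Below these, the next highest score among gene-linked members was at Asmt, which encodes an enzyme of melatonin synthesis. The member lay 802 bp after its start on the X chromosome, with an ABC score of 20.6 and an old score of 35.3. How reads were assigned at this position was not tested. Neo1, the netrin and repulsive-guidance-molecule receptor neogenin, had scores of 15.8 and 8.25, with the nearest young-labelled summit 83.4 kb away. Ror2, a receptor of Wnt5a, had 15.3 and 24.6, 16.2 kb inside the gene. Nek7, a kinase needed for the NLRP3 inflammasome, had 14.6 and 21.7. Mxi1, an antagonist of MYC, had 14.2 and 14.1, 519 bp after a listed start. All of these but Asmt had between 1 and 4 young-labelled summits elsewhere in reach of the gene. Sptb, the erythroid beta spectrin, had scores of 12.8 and 6.91, and Itpk1, an inositol phosphate kinase, 13.0 and 16.1, with its nearest young-labelled summit at 5.16 kb. The others among the 20 were Tdrd3, Sncaip, Arhgef7, Galnt7, Aopep, Dis3l2 and Wdtc1, with ABC scores from 12.4 to 15.6, beside Il10, Smim13 and Tsga10 above. Far from genes, the 4th and 5th were on chromosome 18, 203 kb from Gata6, with an ABC score of 18.6, and on chromosome 5, 16.3 kb from Anxa3, with 16.6.

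The gene with most members was Ppm1h, and of the other genes among the 20 with at least 3 members, the 4 with the highest-scoring member are given. Ppm1h, a protein phosphatase with a record of 268 kb, had 4, with ABC scores of 6.81, 5.51, 5.38 and 6.62, and 10 young-labelled, 33 old-labelled and 14 ABC-labelled summits in reach. Nfix had 3, with ABC scores of 7.54, 9.75 and 6.10 the last of them, with an old score of 16.6, at 542 bp after a listed start. Its counts of summits in reach were 4, 19 and 11. Ank3, which encodes ankyrin G, had 3 (6.37, 5.05 and 9.42) over a record of 494 kb with 1 young-labelled, 26 old-labelled and 11 ABC-labelled summits in reach. Shq1, a factor of box H/ACA ribonucleoprotein assembly, and Sorl1, a sorting receptor, had 3 each.

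Among genes of HSC identity, 5 of 30 were linked to a member (16.7%, 5.64 to 34.7), beside 6.85% of all genes and beside 16 of the 30 linked to a shared summit. All 5 encode transcription factors: Erg, Runx1, Mecom, Fli1 and Etv6. Erg, an ETS factor of HSC maintenance, had its member at 95536586 on chromosome 16, inside a record of 227 kb and 6.22 kb before a listed start, with an ABC score of 7.30 and an old score of 5.36. The nearest young-labelled summit was 16.6 kb away. Runx1, needed for blood stem cells to arise, had its member at 92696754 on chromosome 16, 575 bp after 1 of its 2 listed starts, with scores of 6.18 and 6.28 and the nearest young-labelled summit 46.6 kb away. Mecom, which encodes EVI1, had 2 members, at 30161448 and 30226254 on chromosome 3, both with an ABC score of 6.04 and with old scores of 11.1 and 2.42. Young-labelled summits were 148 kb and 193 kb from them. Fli1 had scores of 5.98 and 5.38 and Etv6 of 5.4 and 2.92. These 5 genes had 11, 4, 5, 6 and 8 young-labelled summits in reach, and all 5 records were over 100 kb, in the length quartile where 16.3% of genes were linked.

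**Figure D4:**
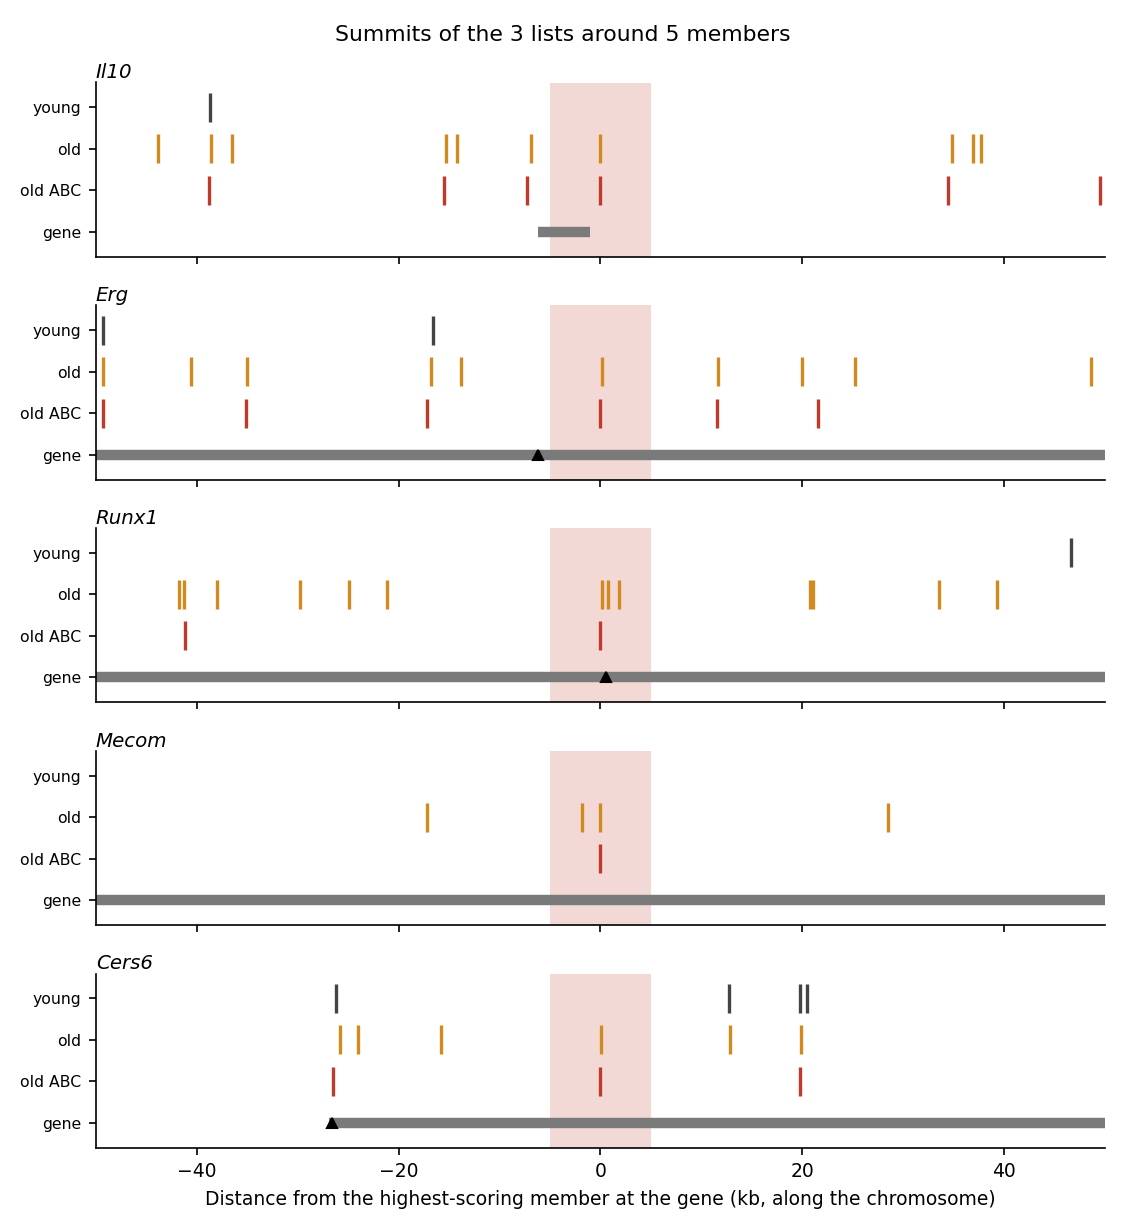
Summits of the 3 lists (ticks) along the chromosome within 50 kb of the highest-scoring member at Il10, Erg, Runx1, Mecom and Cers6, with gene records (grey bars) and listed start sites (triangles). The shaded 5 kb to either side hold the member and an old-labelled summit and no young-labelled summit; Mecom has no young-labelled summit in view, and each of the others has at least 1.

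Inflammatory and NF-kB genes had the same count, 5 of 30 (16.7%, 5.64 to 34.7), and the median record of this list was 9.49 kb. Besides Il10 these were Il1r1, the interleukin 1 receptor, Il1rn, its secreted antagonist, and the chemokines Ccl5 and Ccl4. The Il1r1 member lay 5.46 kb after a listed start, with an ABC score of 9.66 and an old score of 14.8, and its nearest young-labelled summit was just past the threshold, at 5.80 kb. The Ccl5 member lay 4144 bp outside the record, with scores of 5.97 and 9.24, and Ccl5 had no young-labelled summit in reach. Ccl4 had scores of 5.77 and 12.9, and Il1rn of 5.56 and 5.13, and each had 1 young-labelled summit in reach. The Il1rn member lay 4406 bp outside the record. The links of Il10, Ccl5 and Il1rn thus rest on the reach of 5 kb, and the Il1r1 record was 93.7 kb long. Of 24 matched interferon-response genes 2 were linked (8.33%, 1.03 to 27.0). The interferon-induced Ifi27l2a had an ABC score of 6.16 and an old score of 17.2, with its member 312 bp from the record end and no young-labelled summit in reach.

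Among 30 enzymes and readers of histone acetylation 4 were linked (13.3%, 3.76 to 30.7): Kat6a, an acetyltransferase needed by HSCs, the bromodomain protein Brd3, and the deacetylases Sirt2 and Hdac9. Their ABC scores ran from 5.09 at Hdac9 to 5.70 at Kat6a, near the threshold of the rule. Of 40 sphingolipid genes 2 were linked (5.0%, 0.611 to 16.9). Cers6, a ceramide synthase, had 3 members with ABC scores of 7.60, 5.31 and 6.62 and old scores of 10.4, 4.47 and 16.5, and 7 young-labelled summits in reach. Sgpl1, the sphingosine-1-phosphate lyase, had scores of 6.68 and 4.24, 609 bp from its record end. Of 35 ferroptosis genes 1 was linked (2.86%), Gclc of glutathione synthesis, with 7.22 and 4.10. Of 30 HSC ageing genes 1 was linked (3.33%), Exoc6b, with 6.26 and 6.34.

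Genes that mark mature or other cells were linked at shares on either side of the 6.85% of all genes. Megakaryocyte and platelet markers had 2 of 20 linked: Rab27b, a granule-release factor on chromosome 18, with scores of 9.24 and 13.4 and its nearest young-labelled summit 331 kb away, and F5, coagulation factor V, with 6.28 and 5.65. Erythroid markers had 2 of 20, the membrane skeleton genes Add2 (9.53 and 7.09) and Ank1 (5.32 and 7.41). T and NK cell markers had 2 of 26, Cd247, the CD3 zeta chain, with 9.07 and 7.76, and Gata3 with 5.80 and 8.94. Stroma and endothelium markers had 2 of 20, Pdgfra and Pecam1, and neutrophil and monocyte markers 1 of 30, Ltf, at 5.12 and 3.21. B cell markers had 0 of 20 and genes of other tissues 0 of 27, which with intervals up to 16.8% and 12.8% does not set them apart from 6.85%. The share was above 6.85% in 8 of the 14 lists, and the interval of each of the 14 held 6.85%. These values set no list apart from all genes, and no enrichment test was run. The lists were not matched to all genes on record length, over whose quartiles the linked share ran from 1.29% to 16.3%. Summits of other cell types in the sort were not analysed here beyond these markers, and their part in the members was not tested.

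**Figure D5:**
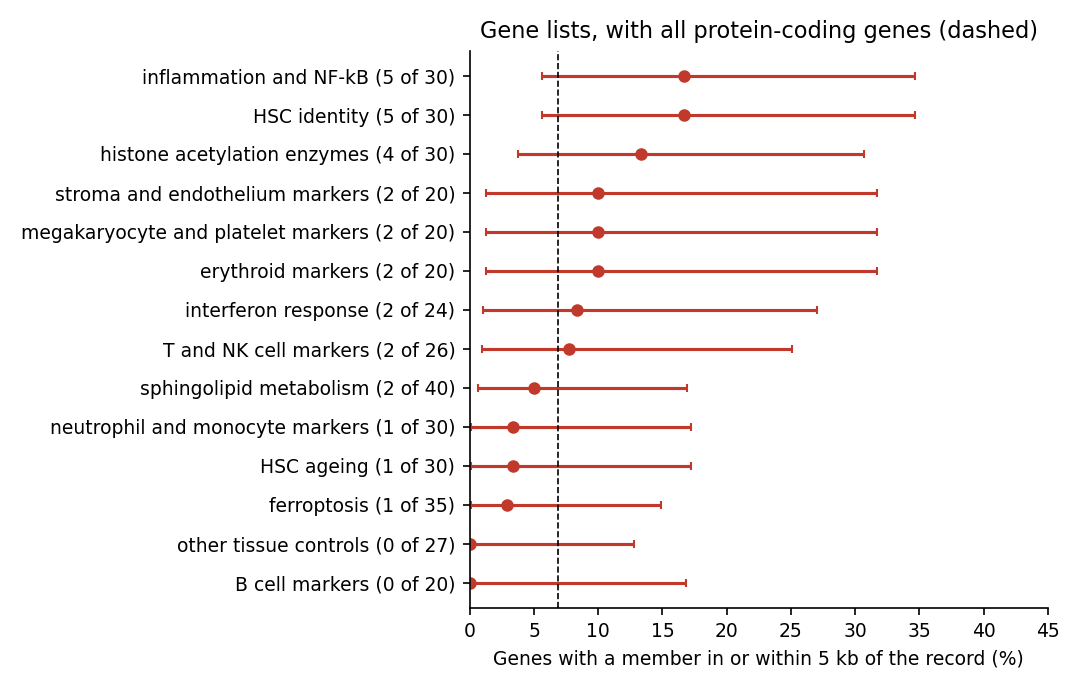
Share of the genes of each of 14 lists (%) with a member in or within 5 kb of the record, with exact 95% binomial intervals and linked of matched genes in brackets; the dashed line is the 6.85% of all 21631 protein-coding genes. Every interval holds the dashed line, and the highest shares, 16.7%, are those of HSC identity and of inflammation and NF-kB.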

How the data were processed

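H3K9ac CUT&Tag was deposited as 1 list of summits per library. The submitters' processing notes name BWA, MACS2, Picard and edgeR and build mm10, and the sources used here do not give their roles, versions or settings, or a control library. Column 5 of each deposited list is read as the −log10 of MACS2's q-value, because every list starts just above 1.3, the −log10 of 0.05. It depends on depth, so the authors' scores were used only to rank and filter within a list. Lists were taken as called per library. The sources used here give no read depth.

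Summits on chromosomes 1 to 19 and X were used, which left out 40 young-labelled, 66 old-labelled and 46 ABC-labelled summits. Nearest distances, shares and exact Clopper-Pearson intervals (95%) were computed with Python 3.11.15, pandas 2.3.3, numpy 2.4.6 and scipy 1.17.1, and figures drawn with matplotlib 3.10.9. The scripts were tested on simulated positions against an exhaustive search. Gene records, promoters and miRNAs came from RefSeq (GRCm38.p6). The promoter table listed a start for 79.9% of genes and none on chromosome 18, so ends of gene records were kept in place of the planned start sites, and genes without a listed start carry no strand. Exon and intron positions were not analysed here, nor were sequences outside promoter windows. A gene was linked to a summit inside its record or within 5 kb.

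Named are the 20 gene-linked members and the 5 others with the highest ABC score, the 5 genes with most members (ties broken by the highest score) and up to 3 linked genes per list, leaving out uncharacterised and olfactory receptor genes; Fli1, Etv6, Hdac9, Ccl4, Il1rn, Prlr, Tnfsf4, Robo2 and the promoter and miRNA genes were named after their values were seen. The values of 1 gene that the rule names are not reported here. Of 383 list entries 1, Mx2, had no record. The members and lists were chosen with earlier results of these data known. Alternatives changed the score, the distances, the list lengths and the gene windows; the start-site measure and the removal of scores of at least 30 were added after seeing the data.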

Additional observations from a re-analysis of the deposited data

How the results depend on the processing

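With 1 library per group no library could be left out. No paired analysis was possible because each group has 1 library and the results come from no test. The 2162 members became 7456 at an ABC score of at least 3, 92 at a score of at least 10, and 1264 with all lists cut to the length of the shortest. The linked genes, 1481 as reported, became 4186, 68 and 923 under those settings. Under the other settings the members numbered from 1484 to 2390, so the number depends mainly on the score and on list length among the settings tried. The share at gene ends, 8.88% as reported, was 10.9% at a score of at least 10, 11.4% with lists of equal length, 10.7% with old scores of at least 5, 5.97% with a window of 500 bp, 12.7% with 2 kb, and 6.49% within 1 kb of a listed start. It was below that of the shared summits in each of these settings: the members' share ran from 5.97% to 12.7% and the shared summits' from 33.5% to 63.2%. Every setting kept members away from young-labelled summits and required one near each shared summit. The rule thus bears on this direction in all of them, and the settings are no independent check of it. The reported directions held for these settings only, and the cause of the moved values was not tested beyond their construction. Only summit positions and scores were given, so signal in the young-labelled library under its calling threshold cannot be told apart from no signal.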

Other observations

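Of 1005 miRNA hairpins of RefSeq, 17 lay within 5 kb of 16 members. In the shortest quartile of protein-coding genes, with records of up to 5.84 kb, 1.29% were linked to a member at the same reach. That share is no matched background, since most hairpins near a member lay inside a host gene. Hairpins near shared summits were not counted, so the 17 are a description only. The 17 included Mir126a, which has a known role in HSCs, in the gene Egfl7 on chromosome 2 (hairpin 26591357 to 26591429, + strand). Its member lay 4232 bp upstream, with an ABC score of 8.09, an old score of 11.5 and the nearest young-labelled summit at 8672 bp. Mir149, in Gpc1, had a member 194 bp upstream (7.28 and 6.37), Mir199b, in Dnm1, one 245 bp upstream (5.51 and 5.81), and Mir182 one 4324 bp downstream (7.19 and 4.06). The hairpin of miR-1271, in Arl10, had 2 members, one 156 bp downstream (8.60 and 28.1) and one 3060 bp upstream (6.93 and 14.5). The mature sequences, from RefSeq and with the seed (bases 2 to 8) in capitals, show that miR-182-5p and miR-1271-5p share the first 6 bases of their seeds and that the other seeds differ.
mmu-miR-126a-3p: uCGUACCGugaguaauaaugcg
mmu-miR-182-5p: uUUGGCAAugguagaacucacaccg
mmu-miR-1271-5p: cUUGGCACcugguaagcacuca
mmu-miR-149-5p: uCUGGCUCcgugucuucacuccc
mmu-miR-199b-3p: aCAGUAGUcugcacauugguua

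Of the 722 members outside protein-coding records, 143 (19.8%, exact binomial interval 17.0 to 22.9) lay in a non-coding or pseudogene record, 126 of them in a lncRNA, against 28.6% (26.6 to 30.8) of the shared summits outside such records. Among them was Pvt1, the lncRNA beside Myc, with an ABC score of 5.31 and an old score of 6.87. The immunoglobulin heavy chain locus Igh, whose segments recombine in B cells, held 7 members of its 31 ABC-labelled summits scoring at least 5 (22.6%, 9.59 to 41.1), beside 13.3% over all chromosomes, a value inside that interval. Igh spans 2.75 Mb and held 43 young-labelled, 107 old-labelled and 60 ABC-labelled summits. The highest-scoring of the 7 was in the V segment Ighv1-50, with 9.24 and 8.25. The T cell receptor locus Tcra held 2 members of 6 (33.3%, 4.33 to 77.7), with 5, 49 and 17 summits, and the light chain locus Igk none, with 1, 6 and 3. V segments come in families of similar sequence, and how reads were assigned among them was not tested. By chromosome, members made up from 9.9% of ABC-labelled summits scoring at least 5 on the X chromosome (29 of 293, 6.73 to 13.9) to 17.4% on chromosome 12 (114 of 657, 14.5 to 20.5).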
